A study of Homo sapiens with 2 samples.

Results

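The genes described here encode the histones, the proteins around which DNA is wound, together with SLBP, the stem-loop binding protein that accompanies histone messenger RNA. Members were the probes of the authors' processed table whose gene symbol, or an older alias of it, is that of a core, linker or variant histone, plus SLBP. The rule found 43 genes on 52 probes among 10161 named genes, and 40 of them, on 49 probes, passed the detection limit, a p under 0.01 for a probe on either array. H1-3, H2AC8 and H3C13 did not reach that limit, and 1 probe annotated to 2 histone genes was left unnamed. The kept genes were 29 replication-dependent genes, 10 replacement variants and SLBP.

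Histone genes are either replication-dependent or encode replacement variants. Replication-dependent genes lie in clusters, are transcribed mostly in S phase, and give short messages that end in a stem-loop instead of a poly(A) tail. SLBP binds that stem-loop and is needed for the processing, translation and stability of these messages. Replacement variants are mostly encoded by scattered genes with ordinary polyadenylated messages and mostly made throughout the cell cycle. They take the place of a core or linker histone at particular sites in chromatin. The labelling kit used here primes on poly(A) tails, and some replication-dependent genes are known to give a minor polyadenylated form, so the signals of that class need not follow its stem-loop messages.

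The cells were MCF-10A, a non-tumorigenic human mammary epithelial line, and total RNA was taken after transfection with a negative control siRNA or with an siRNA against SCTR, the secretin receptor gene (here the control array and the siSCTR array). Each group had 1 array, so no test was possible, every difference is described by its size, and precision is limited by the number of arrays. The siRNA sequences, their dose and the time after transfection are not stated in the labels. No named probe stood for SCTR, so the knockdown was not checked and each direction rests on the labels. A difference is siSCTR minus control, between normalized log2 levels, taken from the brightest kept probe of a gene.

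At the detection limit, 15229 probes of the control array and 15848 of the siSCTR array were detected, out of 47316 with a signal. Of 12 markers chosen for a mammary epithelial line, 6 were kept under a gene name (KRT8, CDH1, CDH3, EGFR, EPCAM and ITGB4), with differences between 0.074 and 1.81, and TP63 and the basal keratins on that list were not among them. Their summed intensity was 19903 units on the control array and 44469 on the siSCTR array. Of 10 markers of other cells, CD68, which epithelial cells also express, and COL1A1 were kept, with differences of -0.52 (9079 and 6292 units) and 1.04 (119 and 166 units) and a summed intensity of 9198 and 6458 units. The part of these marker differences in the histone results was not tested. In bulk RNA, fewer cells that make a transcript and less of it per cell cannot be told apart.

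Histone transcripts were mostly lower on the siSCTR array. Of the 29 replication-dependent genes, 22 were lower by 1.5-fold or more and 0 higher by that much, where 23.3% of all 9427 named genes were that much lower and 20.7% that much higher. Their median difference was -0.99, against -0.082 over all named genes, and 26 of the 29 were below 0. Of the 10 replacement variants, 6 were lower by that much and 0 higher, with a median of -0.65 and 9 below 0. At a 2-fold rule, which 9.18% of all named genes passed downwards and 10.6% upwards, 14 replication-dependent genes and 0 replacement variants were lower, and 0 of either class higher. Of those 14, 8 remained 2-fold lower when genes detected on 1 array were set at the least difference their background-corrected signals allow (8.41% of all named genes). In the authors' values 8 of the 29 were 2-fold lower (4.31% of all named genes), and H4C3, which was not among those 14, was one of them. No gene's difference changed sign without background correction, with an offset of 50, under median scaling, in the authors' values or as the mean over its probes, but single probes of SLBP and MACROH2A1 differed in sign.

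**Figure D1:**
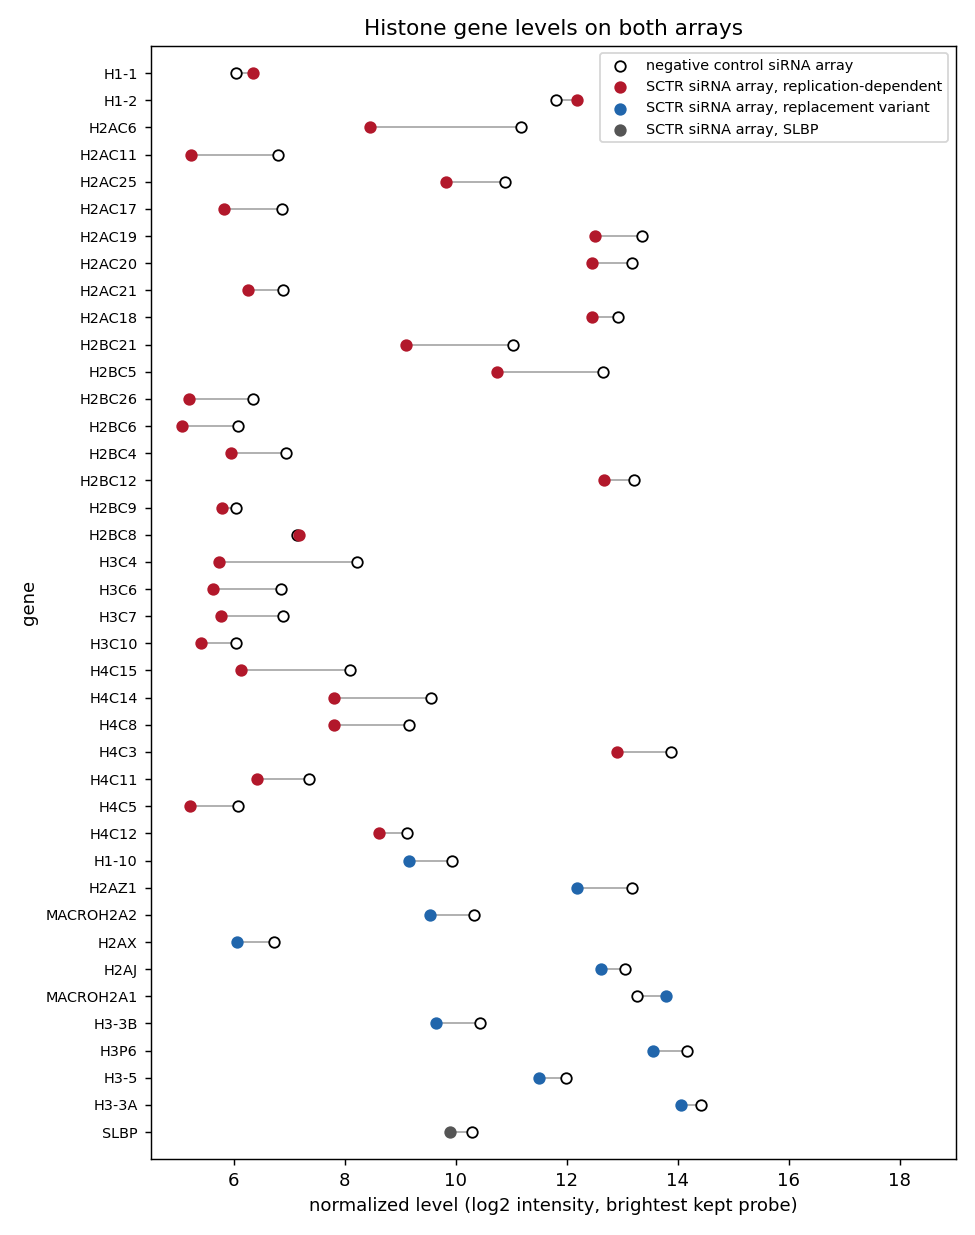
Normalized level (log2 intensity) of each kept gene on the negative control siRNA array (open circles) and the SCTR siRNA array (filled, red for replication-dependent genes, blue for replacement variants, grey for SLBP). Levels of different genes come from different probes and are not to be compared; within each gene the filled circle lies to the left in all but H1-1, H1-2, H2BC8 and MACROH2A1.

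The size of the differences rested in part on dim probes. In the authors' processed values, 12 of the 29 replication-dependent genes were at least 1.5-fold lower, against 15.7% of all named genes, and their median was -0.50. Without background correction of the deposited intensities the count was also 12 (16.4% of all named genes). Among the 19 replication-dependent genes with a mean log2 level under 9, 15 were at least 1.5-fold lower here and 5 in the authors' values. Over all named genes, bright and dim, those shares were 23.3% and 15.7%. Among the 10 at or above a level of 9, 7 were lower in both, with medians of -0.92 and -0.92. In the background-corrected values 21.3% of all named genes that bright were lower and 20.4% higher. Of the kept members, 29 were detected on both arrays, 10 on the control array only, all of them replication-dependent, and 1, H1-1, on the siSCTR array only. Of all 9427 named genes, 8661 had a probe detected on both arrays. How the rest split between the arrays was not counted. Of the 18 replication-dependent genes detected on both, 13 were at least 1.5-fold lower (22.6% of such named genes). A gene detected on 1 array has a bound in place of a fold, taken against the dim reading itself or, if higher, the lowest detected level of that array. Bounds hold within the background-corrected values only, and the authors' values can give smaller differences. With these genes at their bound, 18 of the 29 were at least 1.5-fold lower (22.2% of all named genes) and the median was -0.88.

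**Figure D2:**
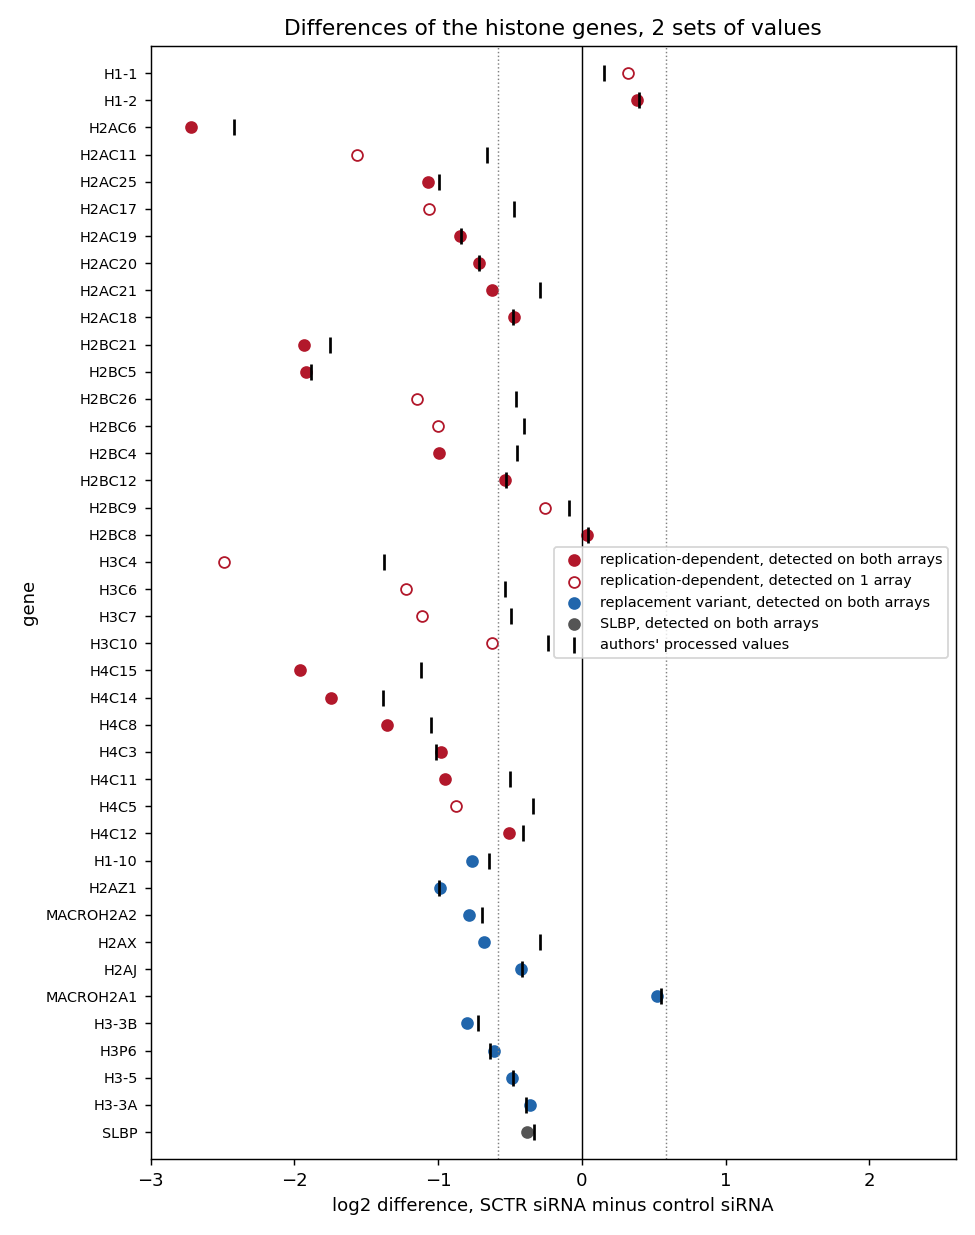
Log2 difference (SCTR siRNA minus control siRNA) of each kept gene after background correction (circles; open where the gene was detected on 1 array) and in the authors' processed values (black ticks); dotted lines mark 1.5-fold. Ticks and circles coincide for bright genes such as H2BC5 (-1.92 and -1.89) and part for dim ones such as H3C4 (-2.49 and -1.38).

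Promoter sequences are shown for 6 genes because they span the range of differences and of promoter types in the family. They are RefSeq windows on GRCh38.p14, from 250 bases before the start site to 50 bases after it, 5′ to 3′ on the gene's strand. H2AC6 at chr6:26123922-26124221 (plus strand) and H2BC21 at chr1:149886633-149886932 (minus strand) were among the lowest members, and H2BC8 at chr6:26216639-26216938 (minus strand) was near 0. H4C14 at chr1:149832407-149832706 (plus strand) stands for the H4 genes, H1-2 at chr6:26056421-26056720 (minus strand) for the linker genes, and H2AZ1 at chr4:99950226-99950525 (minus strand) for the replacement variants. Capitals mark the octamer ATTTGCAT, the CCAAT box and TATAAA, each on either strand, and these 3 motifs do not overlap one another in the windows printed.
H2AC6: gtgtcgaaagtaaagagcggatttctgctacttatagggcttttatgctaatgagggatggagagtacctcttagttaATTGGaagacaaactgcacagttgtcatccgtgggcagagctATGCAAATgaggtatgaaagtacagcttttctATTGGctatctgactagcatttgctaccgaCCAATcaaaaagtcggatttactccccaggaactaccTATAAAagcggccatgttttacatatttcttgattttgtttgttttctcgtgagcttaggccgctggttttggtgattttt
H2BC21: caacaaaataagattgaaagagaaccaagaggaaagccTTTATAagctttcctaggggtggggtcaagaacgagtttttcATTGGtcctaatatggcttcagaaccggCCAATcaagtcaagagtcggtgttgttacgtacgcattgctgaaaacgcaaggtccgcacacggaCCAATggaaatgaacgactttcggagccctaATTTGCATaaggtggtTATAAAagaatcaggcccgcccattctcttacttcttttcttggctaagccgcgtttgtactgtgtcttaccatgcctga
H2BC8: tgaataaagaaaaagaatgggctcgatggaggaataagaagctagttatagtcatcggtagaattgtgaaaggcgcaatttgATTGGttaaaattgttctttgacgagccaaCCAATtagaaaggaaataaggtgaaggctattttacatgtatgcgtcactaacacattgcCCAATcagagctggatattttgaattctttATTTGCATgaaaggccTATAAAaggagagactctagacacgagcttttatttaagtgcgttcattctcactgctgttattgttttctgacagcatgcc
H4C14: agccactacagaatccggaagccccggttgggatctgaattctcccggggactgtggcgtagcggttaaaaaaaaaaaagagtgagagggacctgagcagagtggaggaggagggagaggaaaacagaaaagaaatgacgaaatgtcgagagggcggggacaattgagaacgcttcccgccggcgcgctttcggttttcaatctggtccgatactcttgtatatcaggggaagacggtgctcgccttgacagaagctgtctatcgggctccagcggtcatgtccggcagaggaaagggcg
H1-2: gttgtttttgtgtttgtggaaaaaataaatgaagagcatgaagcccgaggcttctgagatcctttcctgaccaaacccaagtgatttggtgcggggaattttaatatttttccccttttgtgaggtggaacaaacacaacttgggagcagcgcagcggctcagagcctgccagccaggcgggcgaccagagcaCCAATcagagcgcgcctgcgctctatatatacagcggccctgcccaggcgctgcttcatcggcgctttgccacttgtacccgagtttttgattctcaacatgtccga
H2AZ1: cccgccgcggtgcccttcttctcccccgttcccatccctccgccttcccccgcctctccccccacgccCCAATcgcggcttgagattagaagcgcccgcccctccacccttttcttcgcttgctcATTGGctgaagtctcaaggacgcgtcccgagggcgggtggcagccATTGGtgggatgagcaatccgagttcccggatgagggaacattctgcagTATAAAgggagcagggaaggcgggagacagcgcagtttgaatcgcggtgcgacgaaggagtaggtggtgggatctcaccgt

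The octamer, a binding site of the POU factor OCT1 best known from H2B promoters, stood in the windows of 12 of 28 replication-dependent genes with a listed window (42.9%) and of 2.19% of 27305 genes in all. By family these were 6 of 8 H2B, 5 of 8 H2A, 1 of 4 H3 and 0 of 6 H4 genes. CCAAT, the site of the factor NF-Y, was found in 22 of the 28 (78.6%, against 39.7% of all genes), in every H1, H2A, H2B and H3 window set and in none of the 6 H4 genes. TATAAA was found in 20 of the 28 (71.4%, against 13.99%). A match to TTTCCCGC, a form of the E2F site, was found in 0 of the 28 windows and in 1.98% of all genes, which says only that these letters are not in these windows. A gene with several listed starts was counted if any of its windows held the motif, both strands were read, and H4C3, H3-5 and H3P6 had no entry.

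In the background-corrected values, the medians of replication-dependent genes with and without the octamer, CCAAT or TATAAA lay close together. Those medians were not compared in the authors' values. The 12 genes with an octamer had a median of -0.997 and spanned -2.72 (H2AC6) to 0.039 (H2BC8), and the 16 without it had a median of -1.01. The windows of H2BC21 and H2BC8 printed above both carry the octamer just ahead of a TATAAA and CCAAT boxes further out. The difference was -1.93 for H2BC21 and 0.039 for H2BC8. The 6 H4 genes, none with CCAAT, had values as low as -1.96. A match is a description of letters and no site of binding was measured here.

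Among the H2A genes, which encode a core histone that pairs with H2B, 7 of 8 kept were at least 1.5-fold lower, against 23.3% of all named genes. The family median was -0.95 (-0.69 in the authors' values, where 5 were lower, against 15.7% of all named genes). H2AC6 read 2377 intensity units on the control array and 452 on the siSCTR array, 6.58-fold more on the control array (difference -2.72). It was the lowest of the histone genes and the nineteenth lowest of all named genes. H2AC25, the member from the small HIST3 cluster, read 1965 and 1010 units (-1.07).

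H2AC18, H2AC19 and H2AC20 were bright on both arrays and much closer to 0 than H2AC6. H2AC18 read 7967 and 5700 units (-0.47), and its second probe, at 498 and 331 units, gave -0.84. H2AC19 read 10624 and 5892 units (-0.85) and H2AC20 9299 and 5710 (-0.72). H2AC18 and H2AC19 are near-identical copies, so their probes may read each other's transcripts, and how far they do was not tested. Dim genes completed the family. H2AC11 was detected on the control array only and was at least 1.84-fold higher there, H2AC17 likewise at least 1.96-fold, and H2AC21 stood at -0.62. The authors' values put H2AC11 at -0.66, H2AC17 at -0.47 and H2AC21 at -0.29.

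H2B genes encode the partner of H2A and ranged from clearly lower to nearly level. Of the 8, 5 were at least 1.5-fold lower, against 23.3% of all named genes, with a family median of -0.997. In the authors' values 2 of 8 were, against 15.7% of all named genes, with a family median of -0.45. H2BC5 read 6581 units on the control array and 1823 on the siSCTR array (-1.92), and its second, dimmer probe gave -2.11. H2BC21 read 2169 and 653 units (-1.93). Both were bright, and they stood at -1.89 and -1.75 in the authors' values.

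H2BC12 read 9496 and 6572 units, a difference of -0.53 that lies within 1.5-fold, while its second probe gave -0.94. H2BC8 read 225 and 246 units (0.039) and H2BC9, detected on the control array only, 155 and 151 (at least 1.10-fold higher there). H2BC8 and H2BC9 were thus close to level in their readings, while H2BC5 and H2BC21 were several-fold apart. H2BC4 was dim, at 207 and 158 units (-0.99, and -0.45 in the authors' values). H2BC26 and H2BC6 were detected on the control array only and were at least 1.35-fold and at least 1.12-fold higher there.

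The H3 genes of the clusters encode the canonical forms of a core histone that pairs with H4. All 4 kept members were detected on the control array only. H3C4 read 384 units on the control array and 148 on the siSCTR array. In the background-corrected values it was at least 4.98-fold higher on the control array (-1.38 in the authors' values). H3C7 was at least 1.98-fold, H3C6 at least 1.93-fold and H3C10 at least 1.10-fold higher there (-0.49, -0.53 and -0.24 in the authors' values). The lower readings were 144 units for H3C6, 150 for H3C7 and 135 for H3C10, so for this family the background-corrected values give only lower limits. In the authors' values 1 of the 4 was at least 1.5-fold lower (15.7% of all named genes), with a family median of -0.51.

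The H4 genes all encode the same protein, and 6 of 7 were at least 1.5-fold lower, against 23.3% of all named genes. The family median of -0.98 stayed at -1.02 in the authors' values, where 4 of 7 were lower, against 15.7% of all named genes. H4C3, by far the brightest of them in its reading, gave 15751 units on the control array and 7648 on the siSCTR array (-0.98). H4C14 gave 838 and 326 units (-1.74), and H4C15, its near-identical copy, 359 and 167 (-1.96). In the authors' values H4C14 stood at -1.39 and H4C15 at -1.12. Those copies cannot be assumed to be read apart. H4C8 gave 655 and 324 units (-1.36) and H4C11 249 and 183 (-0.95, and -0.50 in the authors' values). H4C12, at 640 and 495 units (-0.50), lay within 1.5-fold, and H4C5, detected on the control array only, was at least 1.13-fold higher there.

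Linker histones bind the DNA between nucleosomes, and the 2 kept replication-dependent linker genes had differences above 0. H1-2, a main linker form of dividing and resting cells, read 3607 units on the control array and 4760 on the siSCTR array (0.39). H1-1 read 154 and 179 units and was at least 1.24-fold higher on the siSCTR array, the array on which it was detected (0.15 in the authors' values). Both lay within 1.5-fold. Whether the linker and core genes of the replication-dependent class differ was not tested, with 2 linker genes and 1 array per group.

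By the older gene names, the HIST1 cluster held 20 kept genes with a median of -0.99, 14 of them at least 1.5-fold lower (23.3% of all named genes). In the authors' values its median was -0.48 and 6 were lower (15.7% of all named genes), and with genes detected on 1 array at their bound 11 were. The HIST2 cluster held 7 genes with a median of -0.85, 6 of them lower, and in the authors' values the median was -0.84 and 5 were lower. Of the 2 kept genes of HIST3, H2AC25 was lower (-1.07) and H2BC26, detected on the control array only, was at least 1.35-fold higher there. HIST1 held 10 genes detected on both arrays, and all 7 of HIST2 were.

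Among members, 4 pairs stand head to head on opposite strands with start sites under 1000 bases apart on GRCh38.p14. H2BC21 was at -1.93 against -0.72 for its neighbour H2AC20, both bright. H2AC6 was at -2.72 against -0.99 for H2BC4, which was dim and stood at -0.45 in the authors' values. Members of these pairs thus differed from each other. Before any bound, H2AC25 and H2BC26 stood close together at -1.07 and -1.15, and H3C7 and H2BC9 at -1.11 and -0.26. H2BC26, H3C7 and H2BC9 were detected on the control array only, so the differences within these pairs are not firm.

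Replacement variants spanned a narrower range, from -0.99 to 0.52. H2AZ1, the variant of H2A found at promoters and enhancers, read 9209 units on the control array and 4753 on the siSCTR array (-0.99), 1.98-fold more in the control and the lowest value of the class. H3-3B, one of a pair of genes for the same H3 variant of active chromatin, read 1462 and 897 units (-0.80). The other gene of that pair, H3-3A, read 23472 and 16524 units (-0.36) by its brightest probe.

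Other probes of H3-3A gave values down to -0.64. The transcribed pseudogene H3P6, whose older name marks it as a copy of H3-3A, read 19572 and 11924 units (-0.61, second probe -0.58). H3-5, with the older name H3F3C, read 4089 and 3036 (-0.49). Probes of H3P6 and H3-5 may read H3-3A or H3-3B transcripts too, and that was not tested. Without H3P6 and H3-5, a choice made after seeing the data, the median of the class was -0.72.

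The macroH2A genes, which encode H2A variants with a large extra domain that mark silenced chromatin, parted. MACROH2A2 read 1366 units on the control array and 848 on the siSCTR array (-0.78). MACROH2A1 read 9962 and 13871 units, a difference of 0.52 and the highest of the variants, though within 1.5-fold. Its second probe gave 0.46 (1134 and 1564 units) and the third -0.43 (573 and 465 units), so the direction of MACROH2A1 depends on the probe.

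H1-10, a linker variant made outside S phase, read 1050 and 675 units (-0.77). H2AJ, a close relative of canonical H2A, read 8575 and 6334 (-0.42). H2AX, whose protein is phosphorylated at DNA breaks, was dim at 192 and 163 units (-0.68), and stood at -0.29 in the authors' values and -0.58, just within 1.5-fold, under median scaling. H1-10 was thus past 1.5-fold and H2AJ within it, and the value of H2AX rests on readings near background.

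**Figure D3:**
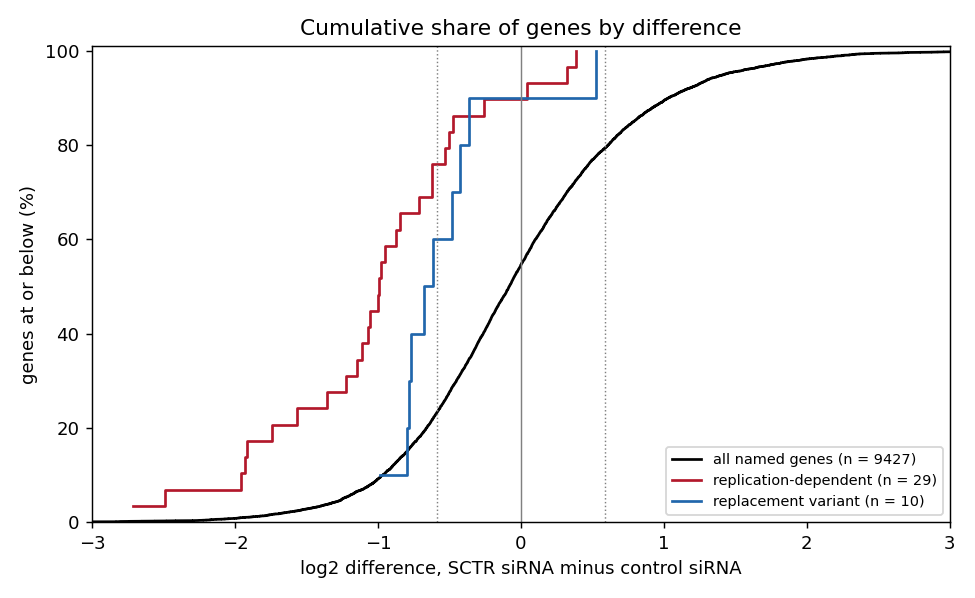
Share of genes (%) at or below each log2 difference for all 9427 named genes (black), the 29 replication-dependent genes (red) and the 10 replacement variants (blue), with dotted lines at 1.5-fold. Both histone curves lie to the left of the black curve over most of its range, with medians of -0.99 and -0.65 against -0.082.

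Set against each other, the replication-dependent median lay 0.35 below that of the replacement variants on the log2 scale (-0.99 against -0.65). That order turned in other sets of values. In the authors' values the medians were -0.50 and -0.56 and in values without background correction -0.53 and -0.54. Among the bright members, those at a mean log2 level of 9 or more, the replication-dependent median was lower in both sets of values, at -0.92 against -0.61 over 10 and 9 genes, and at -0.92 against -0.64 in the authors' values. The difference of the classes was not tested, since each group had 1 array. The range was wider among the replication-dependent genes, from -2.72 to 0.39.

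SLBP itself was near level. Its brighter probe read 1324 units on the control array and 1065 on the siSCTR array (-0.38) and its other probe 774 and 877 (0.16), both within 1.5-fold and of opposite sign. Of the 7 members with several kept probes, SLBP and MACROH2A1 were the ones whose probes differed in sign.

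Genes that make and handle histone messages were counted next. Of 18 kept from a list of 21 genes for their transcription, processing and decay, 3 lay 1.5-fold or more below the control and 3 above it, shares near the 23.3% and 20.7% of all named genes, with a median of 0.074. ERI1, the exonuclease that trims histone messages, read 1083 units on the control array and 635 on the siSCTR array (-0.92). E2F1, the S phase transcription factor, was detected on the control array only and was at least 1.56-fold higher there (-0.43 in the authors' values). LSM11, a protein of the U7 particle that cuts histone messages, was likewise at least 1.21-fold higher there, which does not reach 1.5-fold. SYMPK, a scaffold of the cleavage machinery, was at 0.90, the cap-binding subunit NCBP1 at 0.61 and the translation factor CTIF at 0.61. In the authors' values NCBP1 stood at 0.60, while SYMPK at 0.56 and CTIF at 0.35 lay within 1.5-fold.

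Histone chaperones carry histones to DNA. Of 21 kept from 27, 6 lay 1.5-fold or more below the control and 3 above it, shares near those of all named genes (23.3% and 20.7%), with a median of -0.26. ASF1B, an H3-H4 chaperone of dividing cells, was at least 2.10-fold higher on the control array, the array on which it was detected. CHAF1B, a subunit of the chromatin assembly factor that follows the replication fork, was at -1.46, HJURP, which loads the centromeric H3 variant, at -1.41, and that variant, CENPA, at -1.24. Those genes were dim, and in the authors' values ASF1B stood at -0.91, CHAF1B at -0.72, HJURP at -0.73 and CENPA at -0.61. EP400, of a complex that places the variant of H2AZ1, was at 1.37, and RBBP4 at 1.12 by its brightest probe but -0.25 and -0.82 by others. On the control array EP400 and that RBBP4 probe were dim too, at 211 and 248 units. In the authors' values they stood at 0.93 and 0.82.

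Of 24 genes of DNA synthesis in S phase kept from 27, 12 lay 1.5-fold or more below the control and 0 above it, against 23.3% and 20.7% of all named genes, and the other 12 lay within 1.5-fold, 4 of them above 0. Their median was -0.63 (-0.36 in the authors' values, where 8 were lower, against 15.7% of all named genes). CDC45, part of the replicative helicase, was at -3.18, the polymerase subunit POLD3 at -1.48, the primase PRIM1 at -1.44 (second probe -1.28) and thymidine kinase TK1 at -1.25. GINS2 and the ribonucleotide reductase subunit RRM2 were detected on the control array only and were at least 3.03-fold and at least 1.13-fold higher there. CDC45 read 635 units on the control array and 157 on the siSCTR array, the latter near background. In the authors' values CDC45 stood at -2.03, POLD3 at -0.92, PRIM1 at -0.98, TK1 at -0.68, GINS2 at -0.92 and RRM2 at -0.44. The part of S phase genes in the histone result was not tested, and the lists were chosen with earlier results of these data known.

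**Figure D4:**
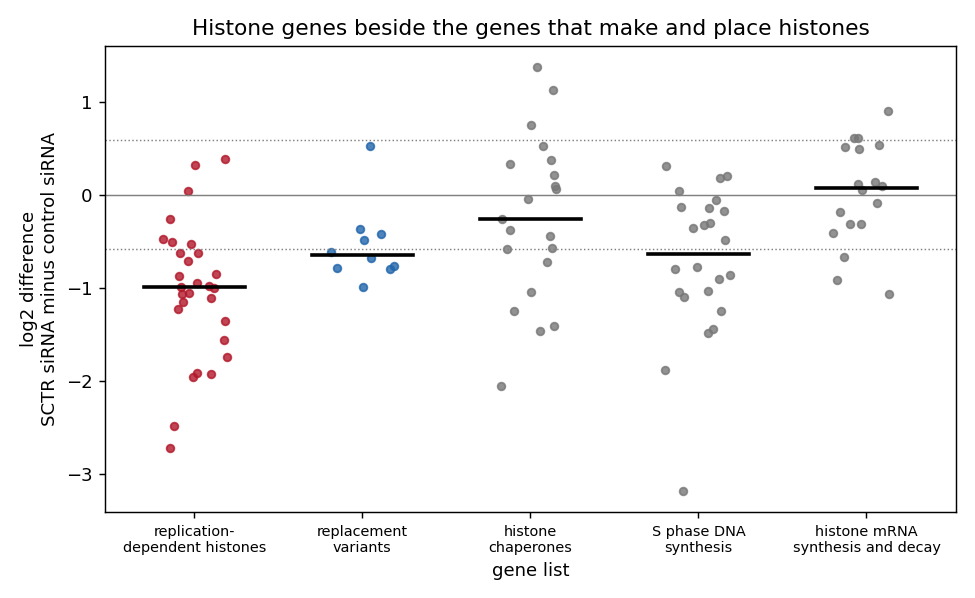
Log2 difference (SCTR siRNA minus control siRNA) of each kept gene of both histone classes and of the 3 other lists, 1 point per gene, with a black bar at the median and dotted lines at 1.5-fold; sideways spread is for legibility. The medians are -0.99, -0.65, -0.26 for chaperones, -0.63 for S phase DNA synthesis and 0.074 for synthesis and decay of histone messages.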

How the data were processed

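Biotin-labelled cRNA of MCF-10A cells was hybridised to Illumina bead arrays, 1 per group (negative control siRNA and SCTR siRNA), grouped by the treatment given in the labels. The deposited non-normalized table lists intensities and detection p-values of each array, per the file headers, and GenomeStudio 2011.1 is named in the submitters' processing notes. Of 47323 probes, 47316 had a signal and were used. The authors' processed table, deposited on a log2 scale, holds 16871 probes, and how it was normalized is not given in the sources used here. Gene names came from platform annotation of that table (13060 probes with 1 symbol), and older aliases from a RefSeq gene table (GRCh38.p14).

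Background was removed by the normal-exponential method (limma 3.58.1 under R 4.3.3), which took its estimate of the negative controls from those p-values and added an offset of 16, quantile normalization and log2 followed, and the steps were tested on simulated data. The brightest probe past a detection p of 0.01 on either array stood for a gene. The lowest detected level, used for bounds, was 6.04 for the control and 5.91 for SCTR siRNA. No p-value for a difference could be given, and a gene was counted as lower or higher past 1.5-fold. All kept members may be named, and up to 6 genes of each other list by absolute difference. The members, the lists and their replication-dependent or replacement class were chosen with earlier results of these data known. Alternatives were no correction, an offset of 50, median scaling, the authors' values, other detection limits and probe rules, a 2-fold rule and bounds. A level minimum of 9, alone or with the authors' values, the 2-fold rule at the bound or in the authors' values, and the omission of 2 genes were added after seeing the data.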

Additional observations from a re-analysis of the deposited data

How the results depend on the processing

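No paired analysis was possible because each group holds 1 array, so no array could be left out. Without background correction the medians were -0.53 (replication-dependent) and -0.54 (replacement), the difference of the medians was 0.013, and 12 replication-dependent genes were at least 1.5-fold lower; in the authors' values these were -0.50, -0.56, 0.057 and 12. With an offset of 50 the replacement median was -0.55 and the difference of the medians -0.19. Lower replication-dependent genes numbered 13 of those detected on both arrays, 14 at 2-fold (8 at the bound and 8 in the authors' values) and 7 at a mean level of at least 9, in these values and in the authors', each a smaller set or a stricter rule, and lower replacement variants numbered 0 at 2-fold in each of these. SLBP was at -0.11 as the mean over its probes and with every probe on its own. The S phase median was -0.38 without correction, -0.50 with an offset of 50, -0.36 in the authors' values, -0.35 among genes detected on both arrays and -0.42 at the bound, all inside 1.5-fold. In the list for transcription, processing and decay, 1 gene was lower and 0 higher without correction and at 2-fold, 1 lower and 1 higher in the authors' values, 1 lower among genes detected on both arrays, and the median was -0.016 with every probe on its own. The chaperone median was -0.12 at a detection p under 0.05. Where probes were dim the cause of these shifts was not tested. Signs changed in 0 of 40 genes without correction, with an offset of 50, under median scaling, in the authors' values and as the mean over probes (bounds and detection limits cannot turn a sign), while 11 of 40 fell inside 1.5-fold in the authors' values and 11 without correction. Detection p-values move in steps of 0.0013, which limits what can be said of dim genes.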
